A study of Mus musculus with 24 samples.

Results

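Loss of Alk5 from the cranial neural crest was examined in the distal mandible, the front part of the lower jaw, of mouse embryos at embryonic day 14.5. The comparison set 3 arrays of Alk5 mutant distal mandible against 3 arrays of control distal mandible, which were 6 of the 24 arrays of a series that also sampled the proximal mandible and the distal and proximal maxilla. Arrays were assigned by their titles, and the comparison was described across all genes of the array. Mutant embryos came from crosses of Wnt1-Cre, Alk5 fl/+ mice with Alk5 fl/fl mice and were told apart by their open palate and abnormal calvaria, and controls were littermates. All groups had the C57B6 background and were sampled at the same stage. The Wnt1-Cre transgene is active in the neural crest lineage, so skeletal muscle, endothelial, blood and epithelial cells of the mutant jaw keep the receptor gene. The labels name the compartment as distal bone and give neither the sex of the embryos nor the number of embryos behind an array.

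Alk5, whose gene symbol is Tgfbr1, is the type I receptor for the 3 TGF-beta ligands. It works with the type II receptor Tgfbr2, phosphorylates Smad2 and Smad3, and through them with Smad4 changes the transcription of matrix, growth arrest and feedback genes. In the lower jaw, neural crest mesenchyme makes Meckel's cartilage, the dentary bone, tendons and connective tissue, while jaw muscle comes from cranial mesoderm and osteoclasts come from blood-forming cells.

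Promoters are shown first for 3 genes that stand for the main changes: Dmp1 and Hey2, with the largest measured fall and rise among called genes whose arrays did not overlap, and Mylpf, a fast muscle myosin light chain gene of the sarcomere group that fell. Each is the 250 bases before the start of transcription, written on the gene's own strand from RefSeq on assembly GRCm38.p6. Capitals mark exact matches, on either strand, to CAGCTG (an E-box of the kind bound by myogenic factors), CGTGGGAA (the site of RBPJ, the DNA-binding partner of Notch, here as its reverse complement) and CAGAC (the SMAD-binding element).
Dmp1, chr5:104197325-104197574, plus strand: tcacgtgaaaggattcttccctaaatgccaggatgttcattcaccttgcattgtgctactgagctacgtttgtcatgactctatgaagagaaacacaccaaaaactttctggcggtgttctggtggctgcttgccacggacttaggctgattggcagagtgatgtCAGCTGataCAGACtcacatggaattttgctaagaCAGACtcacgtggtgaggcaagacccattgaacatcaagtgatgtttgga
Hey2, chr10:30842784-30843033, minus strand: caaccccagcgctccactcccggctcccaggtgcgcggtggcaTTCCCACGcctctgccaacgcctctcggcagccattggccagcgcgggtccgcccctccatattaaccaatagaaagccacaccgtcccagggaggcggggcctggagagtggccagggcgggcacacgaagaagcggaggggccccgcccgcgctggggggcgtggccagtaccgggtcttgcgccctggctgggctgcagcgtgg
Mylpf, chr7:127211358-127211607, plus strand: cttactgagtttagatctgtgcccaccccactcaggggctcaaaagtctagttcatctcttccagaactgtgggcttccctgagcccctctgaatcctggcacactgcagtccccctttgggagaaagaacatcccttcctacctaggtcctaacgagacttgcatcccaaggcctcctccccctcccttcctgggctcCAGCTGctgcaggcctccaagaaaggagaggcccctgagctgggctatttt
RefSeq lists 2 starts for Dmp1, and the first was used. The CAGCTG match begins at -51 in the Mylpf promoter and at -85 in the Dmp1 promoter, and the RBPJ match at -207 in the Hey2 promoter. CAGCTG occurred in 19 of the 37 promoters found for 49 sarcomere, excitation and calcium genes (51.4%), against 12.8% of all 27025 promoters in the table. CAGAC occurred in 7 of the 11 promoters found for the TGF-beta induced genes (63.6%) and in 10 of 15 for the cartilage matrix genes (66.7%). It occurred in 42.1% of all promoters. The bone matrix genes, with Dmp1 among them, had it in 5 of 11 (45.5%). The Notch genes had it in 5 of 12 (41.7%) and the sarcomere, excitation and calcium genes in 16 of 37 (43.2%). The RBPJ letters occurred in 0.666% of all promoters. These counts describe letters in a window and were not tested.

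Values are log2 signals from RMA normalization, listed in the order of array number 1 to 3. A signal under the filter level, the 40th percentile of an array (6.33 to 6.47), was read as background. Where a group mean lay under it, no fold is given, and the log2 difference rests on signals at background. A difference called "floored" below was computed with each array of that dim group raised to at least its own filter level, a setting chosen after seeing the values. The precision is limited by the number of arrays, 3 per group. The labels do not state whether each array had its own embryo, so the p-values refer to the spread among arrays, which may be technical. The mutant arrays correlated with one another at 0.9948 to 0.9951 (mean r over all 45101 probe sets) and the control arrays at 0.9962 to 0.9965. Mutant arrays 1 and 2 were nearest, among the other groups, to control distal mandible, and mutant array 3 to mutant proximal mandible. Xist, the RNA of the inactive X chromosome, had 12.06, 13.10 and 11.63 in mutant arrays, against 13.53, 6.34 and 6.55 in control arrays. The Y-linked gene Eif2s3y had 9.54, 4.29 and 9.25 in mutant arrays, against 4.16, 9.75 and 9.89 in control arrays. Mutant arrays 1 and 3 thus carried both signals, and each control array carried one of them. The same pattern of both signals returned in the same-numbered arrays of each genotype in the other 3 regions, so arrays of different regions may not be independent samples. Counts of many gene groups below are therefore also given without mutant arrays 1 and 3, a setting chosen after seeing these values. It leaves 1 mutant array, array 2, which is assumed to vary like the other groups. Mutant array 2 was the lowest mutant array for most muscle, macrophage, bone matrix, endothelial and lipid genes. It was also the lowest for 7 of the 14 tendon genes. For all these groups this setting cannot check the falls.

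Markers of the labelled tissue were present. Hand2, a transcription factor of the distal lower jaw, averaged 13.04 in mutant and 12.46 in control distal mandible. It averaged 11.14 in mutant and 9.68 in control proximal mandible, and 6.21 and 5.52 in distal maxilla. The patterning factors Hand1 and Dlx5 did not set the mandible apart. Hand1 averaged 7.94 in mutant and 7.77 in control distal mandible, against 7.41 and 7.69 in distal maxilla. Dlx5 averaged 10.68 in mutant and 11.24 in control distal mandible, against 10.89 and 10.54 in distal maxilla. Ibsp, the bone sialoprotein gene, averaged 10.34 in mutant and 13.32 in control distal mandible. The embryonic myosin gene Myh3 (9.54 in mutant, 12.97 in control) and the basal keratin gene Krt5 (12.73 in mutant, 11.93 in control) were also well above background, so the samples also held muscle and epithelial RNA. In pieces of tissue, fewer cells of a type and less RNA per cell cannot be told apart.

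Of 13942 genes tested, 2231 (16.0%) differed between mutant and control distal mandible at an adjusted p under 0.05 (limma, moderated statistics over all 24 arrays, Benjamini-Hochberg adjustment). Of these, 1118 (8.02%) were higher and 1113 (7.98%) were lower in the mutant, and the median change of all genes was 0.04 on the log2 scale. Every count of called genes in a list below is to be set beside these shares. Large changes were mostly falls: 309 genes (2.22%) fell by 1 or more on the log2 scale and 69 (0.495%) rose by as much. The 3 mutant and the 3 control arrays did not overlap for 5915 genes (42.4%). The calls depended on single arrays: 1243 genes were called without mutant array 2 and 1330 without control array 3, and 933 without mutant arrays 1 and 3.

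**Figure D1:**
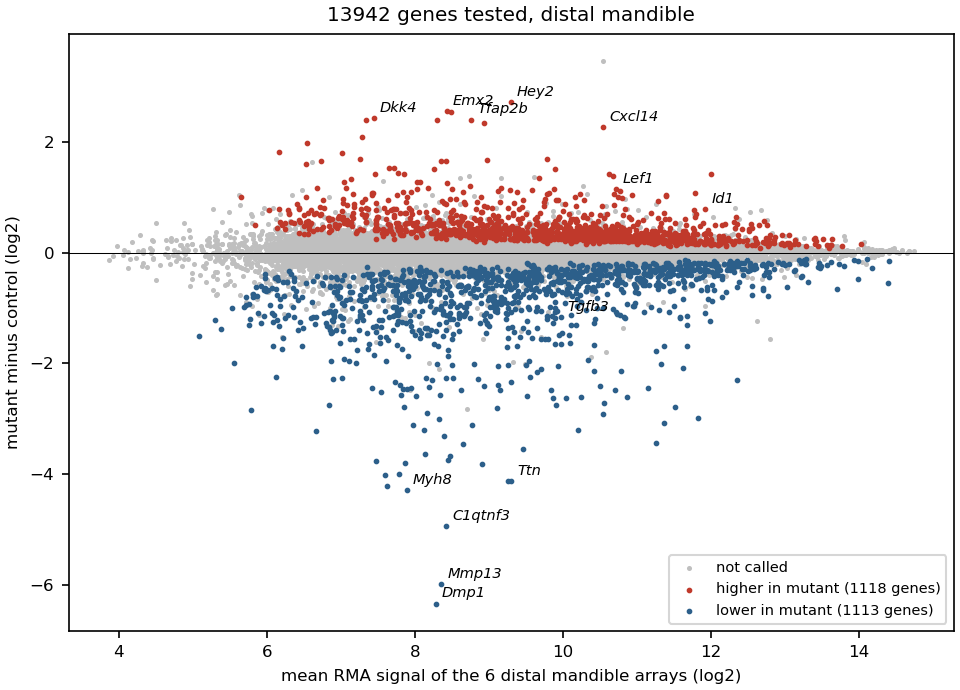
Each point is 1 of 13942 genes: the x axis is the mean log2 signal of the 6 distal mandible arrays, and the y axis is mutant minus control on the log2 scale. Red points (1118 genes) were called higher and blue points (1113 genes) lower in the mutant, and the falls reach -6.34 (Dmp1) while the called rises reach 2.71 (Hey2); the grey point above them is Xist, at 3.46, which was not called.

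The 15 genes with the largest measured falls, with unnamed transcripts, Xist and Y-linked genes passed over, were genes of bone, cartilage, muscle and tendon, with 1 exception. Dmp1, an acidic matrix phosphoprotein of osteocytes, had 5.07, 5.17 and 5.09 in mutant arrays, against 11.20, 11.72 and 11.44 in control arrays. All 3 mutant arrays lay at background, the measured change was -6.34 ± 1.22 (log2 ± SE, adjusted p = 0.00169), and the floored difference was -5.1. Mmp13, a collagenase made where cartilage is replaced by bone, had 4.29, 4.41 and 7.41 in mutant arrays, against 10.98, 11.28 and 11.79 in control arrays (-5.98 ± 1.62, adjusted p = 0.0156). Mutant array 3 had a signal above background, unlike the other mutant arrays, and the floored difference was -4.65. C1qtnf3, a secreted growth factor of cartilage, had 5.53, 6.05 and 6.26 in mutant arrays, against 10.93, 10.66 and 11.08 in control arrays (-4.94 ± 0.47, adjusted p = 3.53e-06). The mutant means of C1qtnf3, Myh8, Tceal7, Atp1b4, Comp, Phex, Epyc and Cyp2f2 were also under the filter level (floored differences of -4.53 to -2.63). Their order in this set, and the place of some of them in it, rests on signals at background. By floored differences Atp1b4, Phex, Epyc and Cyp2f2 ranked 16, 17, 23 and 33 from the largest fall, outside the first 15. The other bone gene of this set was Phex, a peptidase of phosphate balance (-3.80), and the other cartilage matrix genes were Matn3, Comp, Matn1 and Epyc, with changes of -4.12 to -3.76. The muscle genes were Myh8, Ttn, Tceal7 and Atp1b4, and the genes of the tendon and its junction with muscle were Col22a1 and Thbs4, with changes of -4.29 to -3.68. The size depended on the probe set for 2 of them. The 3 probe sets of Col22a1 changed by -3.75 to -0.94. The 6 of Ttn, 4 of them above the filter level, changed by -4.13 to -0.06. The exception was Cyp2f2, a cytochrome P450 gene, with 4.89, 4.82 and 9.26 in mutant arrays, against 9.86, 10.23 and 9.76 in control arrays (-3.63 ± 0.88, adjusted p = 0.00786). Mutant array 3 lay far above the other mutant arrays and just under the lowest control array. Single arrays decided some of these calls: Mmp13 lost its call without mutant array 1, mutant array 2 or control array 3, Matn1 without mutant array 2 or control array 3, and Cyp2f2 without mutant array 2 (-2.88, adjusted p = 0.061).

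The 15 genes with the largest measured rises, taken in the same way, were led by transcription factors and secreted proteins. Hey2, a transcriptional repressor that acts downstream of Notch, had 10.55, 10.93 and 10.47 in mutant arrays, against 8.13, 8.03 and 7.67 in control arrays. The groups were far apart, with a change of 2.71 ± 0.29 (6.55-fold, adjusted p = 1.12e-05). Emx2, a homeobox factor, had 9.78, 9.51 and 9.83 in mutant arrays, against 7.78, 6.0 and 7.69 in control arrays (2.55 ± 0.33, 5.86-fold, adjusted p = 5.92e-05). Control array 2 was the lowest of the 6 for Emx2. Tfap2b, an AP-2 factor of cranial neural crest, had 9.99, 10.10 and 9.78 in mutant arrays, against 7.85, 7.35 and 7.47 in control arrays (2.40 ± 0.26, 5.28-fold, adjusted p = 1.45e-05). Dkk4, a secreted Wnt antagonist that Wnt signalling itself induces, had 8.34, 9.48 and 8.16 in mutant arrays, against 6.71, 5.86 and 6.14 in control arrays (2.43 ± 0.31, adjusted p = 5.15e-05). The control mean of Dkk4 lay under the filter level, as did those of Dynap, Klhl14 and Lhx9. Their floored differences were 2.18 for Dkk4, 1.92 for Dynap, 1.17 for Klhl14 and 0.70 for Lhx9. By floored differences Klhl14 and Lhx9 ranked 34 and 138 from the largest rise, outside the first 15. Cxcl14, a chemokine, had 11.59, 11.91 and 11.53 in mutant arrays, against 9.30, 9.68 and 9.24 in control arrays (2.27 ± 0.42, 4.82-fold, adjusted p = 0.00127). Cbln4, a secreted C1q-family protein, and Avpr1a, a vasopressin receptor, rose by 2.54 and 2.40. The zinc finger factor Glis3 rose by 1.66, the imprinted gene Nnat by 1.68, and the LIM homeobox gene Lhx9 by 1.82. The remaining genes were Dynap, Klhl14, the protease inhibitor genes Stfa3 and Serpinb12, and the thioesterase gene Them5, with rises of 1.67 to 2.40. Them5 lost its call in each of the 6 fits without 1 array (adjusted p of 0.0736 to 0.123), Serpinb12 in 5 of them and Lhx9 without mutant array 1.

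**Figure D2:**
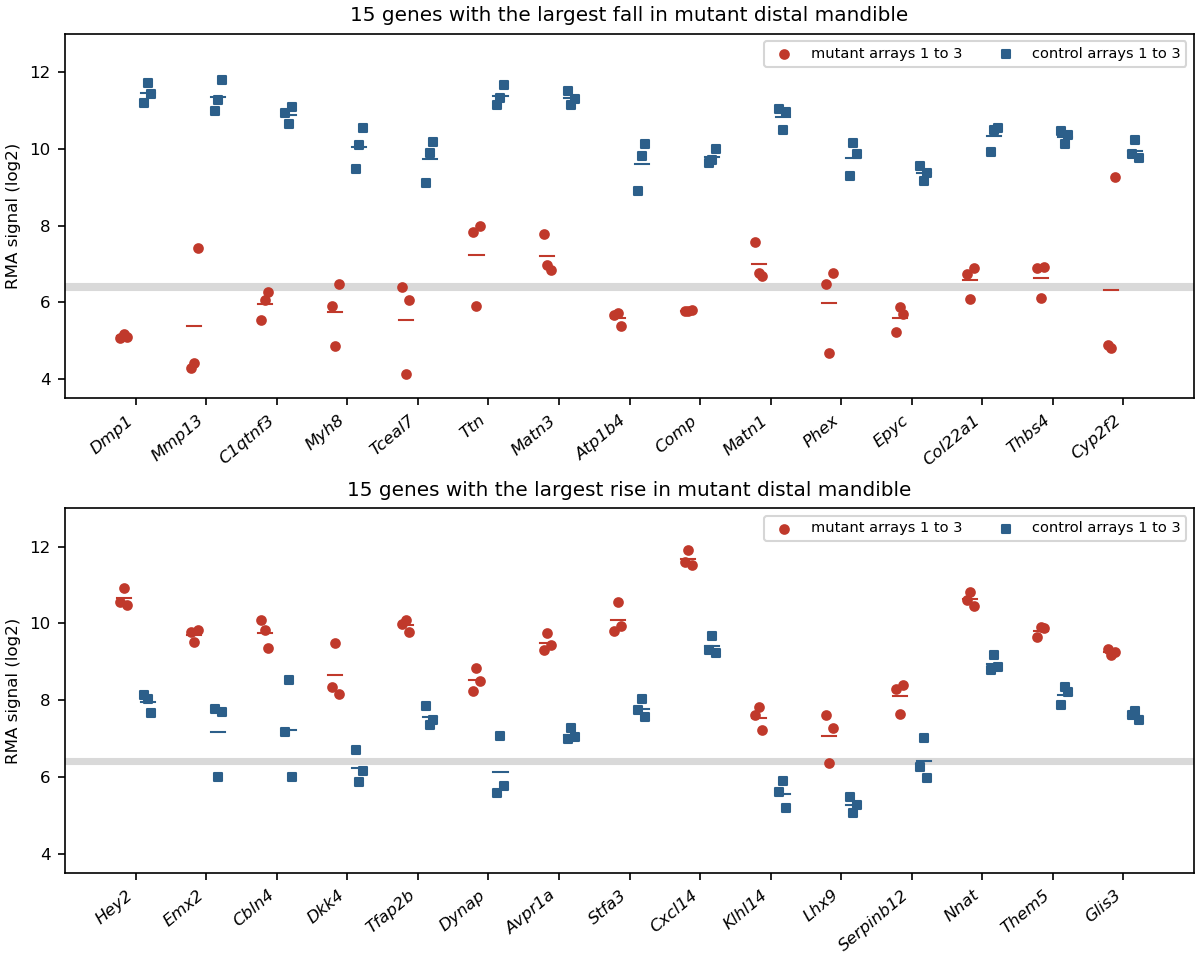
Log2 signal of each array for the 15 named genes with the largest measured falls (top) and rises (bottom). Mutant arrays are red circles on the left and control arrays blue squares on the right, with the group mean as a line. The grey band is the filter level of 6.33 to 6.47. Mutant arrays of Dmp1, C1qtnf3, Atp1b4, Comp and Epyc lie under the band, and mutant array 3 of Mmp13 and of Cyp2f2 stands above the other mutant arrays.

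Among the TGF-beta ligands, Tgfb3 fell and Tgfb2 rose. Tgfb3, the ligand whose loss gives mice a cleft palate, had 9.48, 9.33 and 9.39 in mutant arrays, against 10.48, 10.70 and 10.51 in control arrays. The fall of 1.16 on the log2 scale (SE 0.15, 2.24-fold, adjusted p = 6.56e-05) was larger than the spread within either group. Tgfb2 had 11.78, 11.49 and 11.80 in mutant arrays, against 11.43, 11.32 and 11.26 in control arrays (0.35 ± 0.11, adjusted p = 0.0287), and its 4 probe sets were all higher. Tgfb2 was not called without mutant array 1, mutant array 3, control array 2 or control array 3 (0.30 to 0.34). Tgfb1 had 7.71, 7.71 and 7.51 in mutant arrays, against 8.02, 8.16 and 8.33 in control arrays (-0.52 ± 0.29, adjusted p = 0.247). The arrays of Tgfb1 did not overlap either, and the difference was not called.

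Of the 5 receptors and coreceptors, only the type II receptor Tgfbr2 was called, with 11.58, 11.37 and 11.60 in mutant arrays, against 11.89, 11.88 and 11.92 in control arrays (-0.38 ± 0.10, adjusted p = 0.0122). Without mutant array 2 the call was lost (-0.31, adjusted p = 0.0814). A share of 1 in 5 is near the 16.0% of all genes called. Tgfbr1, the targeted gene, had 12.48, 12.35 and 12.24 in mutant arrays, against 12.27, 12.06 and 12.08 in control arrays (0.22 ± 0.09, adjusted p = 0.101). Mutant array 3 lay just under control array 1, so the groups overlapped, and its 3 probe sets were all higher in the mutant. The place of these probe sets relative to the floxed part was not examined and other cells of the jaw keep the gene, so Tgfbr1 checks nothing about the genotype. The coreceptor Tgfbr3 had 10.90, 10.37 and 10.90 in mutant arrays, against 10.20, 10.00 and 10.39 in control arrays (0.52 ± 0.20, adjusted p = 0.0788). Eng and Acvrl1, receptors of endothelium, changed by -0.04 and -0.02 (95% intervals of -0.24 to 0.16 and -0.38 to 0.35). Of 7 SMAD genes tested, 2 rose: the inhibitory Smad6 (0.46 ± 0.13, adjusted p = 0.0171) and the TGF-beta transducer Smad3 (0.20 ± 0.06, adjusted p = 0.0351). Smad3 lost its call in each of the 6 fits without 1 array (adjusted p of 0.0601 to 0.119) and Smad6 in 3 of them, and 0 of the 7 were called without mutant arrays 1 and 3. The other transducers measured, Smad1, Smad2, Smad4 and Smad5, changed by 0.05 to 0.27 without a call.

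Of 20 genes known to be induced by TGF-beta, 9 fell and 2 rose, with a median of -0.41, against 0.04 for all genes. With mutant arrays 1 and 3 left out, 5 fell and 2 rose. Pmepa1, a feedback inhibitor of SMAD signalling, had 8.56, 8.37 and 8.32 in mutant arrays, against 9.02, 8.97 and 9.07 in control arrays (-0.60 ± 0.10, adjusted p = 0.000419). Ltbp2, which encodes a microfibril protein of the latent TGF-beta binding family, had 5.73, 6.26 and 6.52 in mutant arrays, against 7.42, 7.32 and 7.80 in control arrays (-1.34 ± 0.22, adjusted p = 0.000471). The mutant arrays of Ltbp2 lay around the background level. The matricellular genes Ccn1 and Ccn2 both fell by 0.98, the fibronectin gene Fn1 by 0.80 and the SMAD corepressor gene Skil by 0.41. Timp3, Col1a1 and Postn made up the remaining falls (0.43 to 1.23). Ccn2 lost its call without mutant array 3, and Postn without mutant array 2, control array 1 or control array 3. The rises were Tgif1, a homeobox corepressor of SMADs (0.65 ± 0.10, adjusted p = 0.00024), and Snai2, a zinc finger repressor of neural crest (0.42 ± 0.07, adjusted p = 0.000983).

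Cartilage matrix genes fell together. Of 19 tested, 16 fell and 0 rose, all 19 changes were below 0, and the median was -2.34. Col2a1, the main cartilage collagen, had 11.43, 11.61 and 10.57 in mutant arrays, against 13.57, 13.47 and 13.50 in control arrays (-2.31 ± 0.58, 4.97-fold, adjusted p = 0.0103). Snorc, a small membrane proteoglycan of chondrocytes, had 7.95, 7.57 and 7.53 in mutant arrays, against 11.25, 11.15 and 11.31 in control arrays (-3.55 ± 0.62, 11.7-fold, adjusted p = 0.000869). Col11a1 had 10.82, 10.61 and 10.31 in mutant arrays, against 12.70, 12.60 and 12.71 in control arrays (-2.09 ± 0.35, adjusted p = 0.000565). Mutant array 3 was the lowest mutant array for 16 of the 19 genes. Without it 10 genes were called lower, and without mutant arrays 1 and 3 the number was 5. Acan and Chad fell by 2.34 and 1.76 (Acan was not called without mutant array 3), while Col9a1, Col9a2 and Matn4 were below 0 without a call.
Of 9 genes that specify and regulate chondrocytes, 1 fell, Foxa3 (-1.18 ± 0.24, floored -0.49, adjusted p = 0.0026), a forkhead factor whose mutant arrays lay at background. Sox9, the factor that cartilage formation requires, changed by -0.01 (95% interval -0.95 to 0.94), and Ihh, the hedgehog ligand of growing cartilage, by -0.41 (adjusted p = 0.0513). The median of these 9 genes was -0.26, and all 9 changes were below 0.

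Bone matrix and mineral genes also fell: 10 of 13 fell, 0 rose and the median was -1.69. Ibsp had 11.28, 8.87 and 10.87 in mutant arrays, against 13.21, 13.44 and 13.32 in control arrays (-2.98 ± 0.65, 7.90-fold, adjusted p = 0.00419). Omd, a keratan sulfate proteoglycan of mineralised matrix, had 8.61, 8.14 and 8.54 in mutant arrays, against 10.55, 10.58 and 10.88 in control arrays (-2.24 ± 0.41, adjusted p = 0.00127). Smpd3, a sphingomyelinase needed for mineralisation, had 9.05, 8.04 and 8.50 in mutant arrays, against 10.07, 10.28 and 10.30 in control arrays (-1.69 ± 0.34, adjusted p = 0.00229). Mutant array 2 was the lowest mutant array for 8 of the 13 genes. The abundant genes Col1a1, Col1a2 and Sparc fell by 1.23, 0.55 and 0.65, and Ifitm5, a membrane protein of osteoblasts, fell by 2.62. Of the 13, 9 or 10 were called lower in each fit without a single array. Of 7 osteoblast factors, 4 fell and 1 rose. Sp7, the osteoblast-defining zinc finger factor, had 9.99, 9.46 and 9.20 in mutant arrays, against 10.59, 10.66 and 10.77 in control arrays (-1.13 ± 0.28, adjusted p = 0.00908). Alpl, the alkaline phosphatase gene, Tnn and Dlx5 fell by 0.96, 0.66 and 0.56, and Twist1, which holds back osteoblast maturation, was the member that rose. These 4 falls were 1 or 2 in each fit without a single array and 0 without mutant arrays 1 and 3.

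Osteoclast genes fell in 9 of 11 cases and rose in 0, with a median of -1.30. Atp6v0d2, a proton pump subunit of osteoclasts, had 6.57, 6.50 and 6.74 in mutant arrays, against 8.94, 9.04 and 9.02 in control arrays (-2.39 ± 0.24, 5.26-fold, adjusted p = 6.23e-06). Ctsk, the bone-resorbing cathepsin, had 9.74, 9.29 and 10.09 in mutant arrays, against 11.67, 11.86 and 12.03 in control arrays (-2.14 ± 0.27, adjusted p = 5.18e-05). Acp5, the tartrate-resistant phosphatase, had 7.15, 6.67 and 7.81 in mutant arrays, against 10.12, 10.48 and 10.41 in control arrays (-3.12 ± 0.66, 8.72-fold, adjusted p = 0.00317). Every one of these mutant arrays lay below every control array. Dcstamp and Ocstamp, which serve osteoclast fusion, fell by 1.43 and 1.30 (the mutant mean of Ocstamp lay at background, and its floored difference was -0.05), and 7 of the 11 were still called lower without mutant arrays 1 and 3. Of the 5 genes of the RANK ligand and CSF1 system that feeds osteoclast formation, 4 fell. Tnfsf11, the RANK ligand itself, had 8.15, 7.90 and 6.70 in mutant arrays, against 8.95, 9.03 and 9.0 in control arrays (-1.41 ± 0.47, adjusted p = 0.0491). Tnfsf11 kept its call in the fit without mutant array 1 and lost it in the other 5. Its decoy receptor Tnfrsf11b fell by 1.15 and the growth factor gene Csf1 by 0.53, and its receptor gene Csf1r is described with the macrophage markers. Tnfrsf11a, the receptor RANK, was not called, at -0.25 (adjusted p = 0.152). Without mutant arrays 1 and 3, 3 of the 5 fell.
Macrophage and leukocyte markers fell in 10 of 18 cases, with a median of -0.57. Without mutant array 2, 8 fell and the median was -0.36. Csf1r, the receptor of macrophages and osteoclast precursors, had 9.83, 9.38 and 10.13 in mutant arrays, against 11.04, 10.89 and 11.25 in control arrays (-1.28 ± 0.20, adjusted p = 0.000394). Ptprc, the pan-leukocyte gene, fell by 1.30 and Tyrobp by 1.23. Mutant array 2 was the lowest mutant array for 17 of the 18 genes, and the mean level of the list was 8.17, 7.82 and 8.49 in mutant arrays, against 8.80, 8.77 and 9.01 in control arrays. The share of this blood-derived RNA in the osteoclast falls was not tested.

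Tendon genes fell in 9 of 14 cases and rose in 0, with a median of -1.18. All 9 were still called lower in each fit without a single array. Tnmd, the tenocyte membrane protein, had 8.85, 8.54 and 8.4 in mutant arrays, against 11.19, 10.97 and 11.09 in control arrays (-2.49 ± 0.30, 5.60-fold, adjusted p = 3.53e-05). Thbs4 had 6.88, 6.10 and 6.91 in mutant arrays, against 10.47, 10.13 and 10.35 in control arrays (-3.68 ± 0.37, 12.9-fold, adjusted p = 6.23e-06). Scx, the transcription factor that marks tendon precursors, had 6.06, 5.70 and 6.26 in mutant arrays, against 7.12, 7.31 and 7.14 in control arrays (-1.18 ± 0.19, adjusted p = 0.000423). The mutant arrays of Scx lay at background. Fmod and Thbs2 fell by 1.96 and 1.94, Htra3 by 1.65 and Col12a1 by 1.17. In the secreted matrix of loose mesenchyme, 11 of 20 genes fell and 1 rose, with a median of -0.83, and 6 fell without mutant arrays 1 and 3. Fbln5, which assembles elastic fibres, had 10.06, 10.44 and 10.09 in mutant arrays, against 11.30, 11.30 and 11.38 in control arrays (-1.13 ± 0.10, adjusted p = 2.87e-06). Aspn, a TGF-beta binding proteoglycan, fell by 1.78, the crosslinking enzyme gene Loxl1 by 1.37, Ogn by 1.31 and the elastin gene Eln by 1.07. The rise was Vcan, a large proteoglycan of loose mesenchyme (0.32 ± 0.10, adjusted p = 0.0342), which was not called in any of the 6 fits without 1 array.

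Muscle genes, whose cells lie outside the Wnt1-Cre lineage, also fell. Of 28 sarcomere genes, 19 fell and 0 rose, all 28 changes were below 0, and the median was -2.44. Myh3, the embryonic myosin heavy chain, had 10.11, 8.08 and 10.43 in mutant arrays, against 12.67, 13.02 and 13.21 in control arrays (-3.43 ± 0.78, 10.8-fold, adjusted p = 0.00546). Myh8, the perinatal myosin heavy chain, had 5.91, 4.87 and 6.47 in mutant arrays, against 9.48, 10.09 and 10.54 in control arrays (-4.29 ± 0.73, adjusted p = 0.000683). Ttn, the giant spring protein of the sarcomere, had 7.82, 5.91 and 7.99 in mutant arrays, against 11.13, 11.32 and 11.67 in control arrays (-4.13 ± 0.78, 17.5-fold, adjusted p = 0.00144). In all 3 genes mutant array 2 was the lowest and control array 1 the lowest of the controls. The same array order held across the list: mutant array 2 was the lowest mutant array for 22 of 28 genes and control array 1 the lowest control array for 27. The mean level of the list was 8.96, 7.66 and 9.09 in mutant arrays, against 10.28, 10.90 and 11.06 in control arrays. Without mutant array 2, 12 genes were called lower and the median was -1.83. Mylpf, whose promoter is shown above, had a change of -2.60, the skeletal actin gene Acta1 of -3.07, and the M-band genes Myom1 and Myom2 of -2.45 and -3.45. Mylpf lost its call without mutant array 2, control array 2 or control array 3.
Of 21 genes of muscle excitation, calcium handling and energy supply, 11 fell and 0 rose (median -1.11). Ckm, the muscle creatine kinase, had 6.55, 6.26 and 6.76 in mutant arrays, against 8.72, 9.80 and 10.65 in control arrays (-3.20 ± 0.41, 9.20-fold, adjusted p = 5.62e-05). Its 2 probe sets disagreed, with changes of -3.20 and 0.01. Casq1 and Casq2, the calcium stores of the sarcoplasmic reticulum, fell by 1.29 and 2.28. The number called lower was 5 without mutant array 2 and 5 without control array 3. Of 16 genes of muscle precursors and myogenic regulators, 5 fell and 0 rose (median -0.97). Tceal7, which muscle differentiation induces, had 6.39, 4.12 and 6.07 in mutant arrays, against 9.11, 9.90 and 10.19 in control arrays (-4.21 ± 0.66, adjusted p = 0.000354). Msc, a transcription factor of jaw muscle precursors, had 7.90, 6.85 and 7.96 in mutant arrays, against 9.05, 9.41 and 9.52 in control arrays (-1.76 ± 0.49, adjusted p = 0.0188). Myf6 (both group means at background), Des and the receptor gene Met completed the falls (0.73 to 1.43). The number called lower was 1 without mutant array 2, 2 without control array 2, 2 without control array 3 and 3 without mutant array 1.

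**Figure D3:**
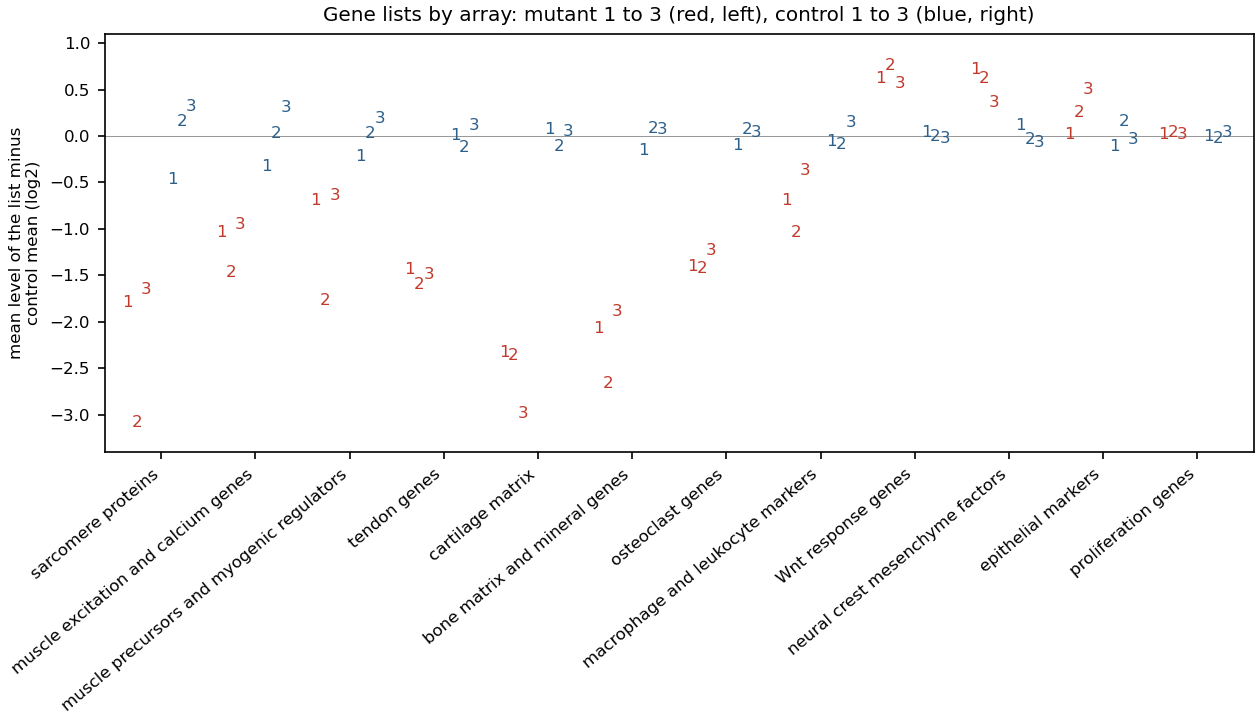
Mean log2 level of 12 gene lists in each array, as the difference from the control mean of the list (y axis); red numbers 1 to 3 on the left are the mutant arrays and blue numbers on the right the control arrays. Mutant array 2 lies lowest for the sarcomere list (7.66, against 8.96 and 9.09 in mutant arrays 1 and 3), mutant array 3 lies lowest for cartilage matrix, and the proliferation list is level in all 6 arrays.

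Wnt response genes rose. Of 15 tested, 10 rose and 1 fell, with a median of 0.71. Lef1, a transcription factor of the Wnt pathway and one of its targets, had 11.34, 11.45 and 11.07 in mutant arrays, against 10.19, 10.09 and 10.17 in control arrays (1.14 ± 0.12, 2.20-fold, adjusted p = 6.23e-06). Axin2, the feedback inhibitor used as a readout of canonical Wnt signalling, had 9.86, 9.94 and 9.98 in mutant arrays, against 8.95, 9.04 and 8.95 in control arrays (0.95 ± 0.12, 1.93-fold, adjusted p = 4.12e-05). Apcdd1, a membrane inhibitor that Wnt induces, had 12.66, 12.79 and 12.67 in mutant arrays, against 11.29, 11.39 and 11.21 in control arrays (1.41 ± 0.18, 2.65-fold, adjusted p = 5.68e-05). None of these groups overlapped. The Dishevelled inhibitors Nkd1 and Nkd2 rose by 0.89 and 0.74. Dkk4, Tcf4, Rnf43, Dkk1 and Bmp4 made up the other rises. Tcf4 is by its symbol a helix-loop-helix factor gene and not Tcf7l2, so its rise is not read as a Wnt response. The list still holds it, so it is 1 of the 15 genes and 1 of the 10 rises, and it enters the median. Dkk1 lost its call without mutant array 2 or control array 3, and Bmp4 without mutant array 1, mutant array 2, control array 1 or control array 3. The gene that fell was Lgr5, the R-spondin receptor, with 9.52, 9.53 and 9.29 in mutant arrays, against 10.30, 10.60 and 10.13 in control arrays (-0.89 ± 0.17, adjusted p = 0.00151). Leaving out mutant arrays 1 and 3, 7 genes rose and 0 fell. Elsewhere the list median was 0.32 (proximal mandible), 0.03 (distal maxilla) and 0.30 (proximal maxilla).
Among 13 secreted Wnt antagonists, 2 rose and 3 fell (median -0.04), against 16.0% of all genes called in either direction. Dkk1 had 10.69, 10.68 and 10.43 in mutant arrays, against 9.87, 9.93 and 9.47 in control arrays (0.84 ± 0.22, adjusted p = 0.0118), and Dkk4 was the other rise. Sfrp1 had 9.41, 8.98 and 9.68 in mutant arrays, against 10.15, 10.47 and 10.67 in control arrays (-1.07 ± 0.23, adjusted p = 0.00368), and Sfrp2 and Dkk3 fell by 0.79 and 0.98. The number of rises was 1 without mutant array 2, 1 without control array 3 and 1 without mutant arrays 1 and 3.

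BMP response genes rose in 4 of 13 cases and fell in 1, with a median of 0.32. Id1, a helix-loop-helix inhibitor and direct BMP target, had 12.29, 12.34 and 12.29 in mutant arrays, against 11.45, 11.61 and 11.53 in control arrays. Its change of 0.78 ± 0.06 (1.71-fold) had an adjusted p of 5.52e-07, and the groups were far apart. Id3, Smad6 and Id2 rose by 0.43, 0.46 and 0.32, Dlx5 fell, and Msx2 changed by 0.68 (adjusted p = 0.0504). Dlx5 kept its call in the fit without mutant array 1 and lost it in the other 5. The rises numbered 2 without mutant array 2, without control array 3, or without mutant arrays 1 and 3. Of 13 BMP ligands and antagonists, 2 rose and 3 fell, against 16.0% of all genes called in either direction. The ligands Bmp7 (0.38 ± 0.08, adjusted p = 0.00352) and Bmp4 (0.49 ± 0.16, adjusted p = 0.04) rose, while the ligand Bmp5 fell by 0.80 and the antagonist Chrdl1 by 1.93. Gdf5, the growth factor of forming joints, had 6.23, 6.72 and 6.69 in mutant arrays, against 7.96, 7.87 and 8.0 in control arrays (-1.39 ± 0.27, 2.63-fold, adjusted p = 0.00169). In fits without mutant array 1, mutant array 2, control array 1 or control array 3, only 1 of the 2 rises was called.

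In the Notch pathway, 2 of 15 genes rose and 1 fell, a share near the 16.0% of all genes called, and the median was 0.03. Besides Hey2, Nrarp, a feedback target of Notch, had 10.68, 10.81 and 10.67 in mutant arrays, against 10.10, 9.91 and 10.08 in control arrays (0.69 ± 0.13, 1.62-fold, adjusted p = 0.00137), and Heyl fell by 0.45 (adjusted p = 0.0448), a call lost in each of the 6 fits without 1 array. Jag1 and Notch1 changed by 0.32 and 0.42 without a call (adjusted p = 0.0613 and 0.0665). The 2 rises were also called without mutant arrays 1 and 3. Of 11 hedgehog genes, Gli2 rose (0.38 ± 0.07, adjusted p = 0.00128) and the antagonist Hhip fell (-1.14 ± 0.30, adjusted p = 0.014), a call lost without mutant array 2 or control array 3. Of 13 FGF genes, Dusp6 rose by 0.30, and the feedback inhibitor Spry1 and the ligand Fgf7 fell by 0.48 and 0.91. Spry1 had 10.12, 9.86 and 10.12 in mutant arrays, against 10.52, 10.58 and 10.46 in control arrays (adjusted p = 0.000869). Dusp6 overlapped between the groups and was not called without mutant array 1, mutant array 2, control array 2 or control array 3. The 2 FGF falls numbered 1 without mutant array 2 and without each control array in turn. The shares called among the hedgehog and FGF genes were also near the 16.0% of all genes.

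Factors of neural crest mesenchyme rose in 6 of 13 cases and fell in 0, with a median of 0.64. Twist1, a helix-loop-helix factor of crest mesenchyme, had 11.97, 11.86 and 11.91 in mutant arrays, against 10.92, 11.01 and 10.71 in control arrays (1.03 ± 0.08, 2.05-fold, adjusted p = 5.52e-07). Twist2 had 11.43, 11.10 and 11.47 in mutant arrays, against 10.18, 9.54 and 10.01 in control arrays (1.42 ± 0.29, 2.68-fold, adjusted p = 0.00241). Tfap2a, the AP-2 partner of Tfap2b, had 10.40, 10.49 and 10.31 in mutant arrays, against 9.65, 9.36 and 9.38 in control arrays (0.94 ± 0.20, 1.91-fold, adjusted p = 0.0041). The groups did not overlap for any of them. Snai2 and Snai1 rose by 0.42 and 0.64 (Snai1 was called without mutant array 2 or mutant array 3 but in no other fit that left out 1 array), and without mutant arrays 1 and 3 the number of rises was 3. Of 9 distal patterning factors of the jaw, Alx4 rose (0.62 ± 0.10, adjusted p = 0.000598) and 0 fell, and Hand2 changed by 0.58 (95% interval -0.17 to 1.33, adjusted p = 0.299). Of 14 proximal and oral factors, Emx2 and Meis2 rose and Dlx5 fell. In both patterning lists the share called was near the 16.0% of all genes. Meis2 had 11.12, 11.18 and 11.14 in mutant arrays, against 10.44, 10.66 and 10.30 in control arrays (0.68 ± 0.15, 1.60-fold, adjusted p = 0.00556). Without mutant arrays 1 and 3, 1 of the 2 rises was called.

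**Figure D4:**
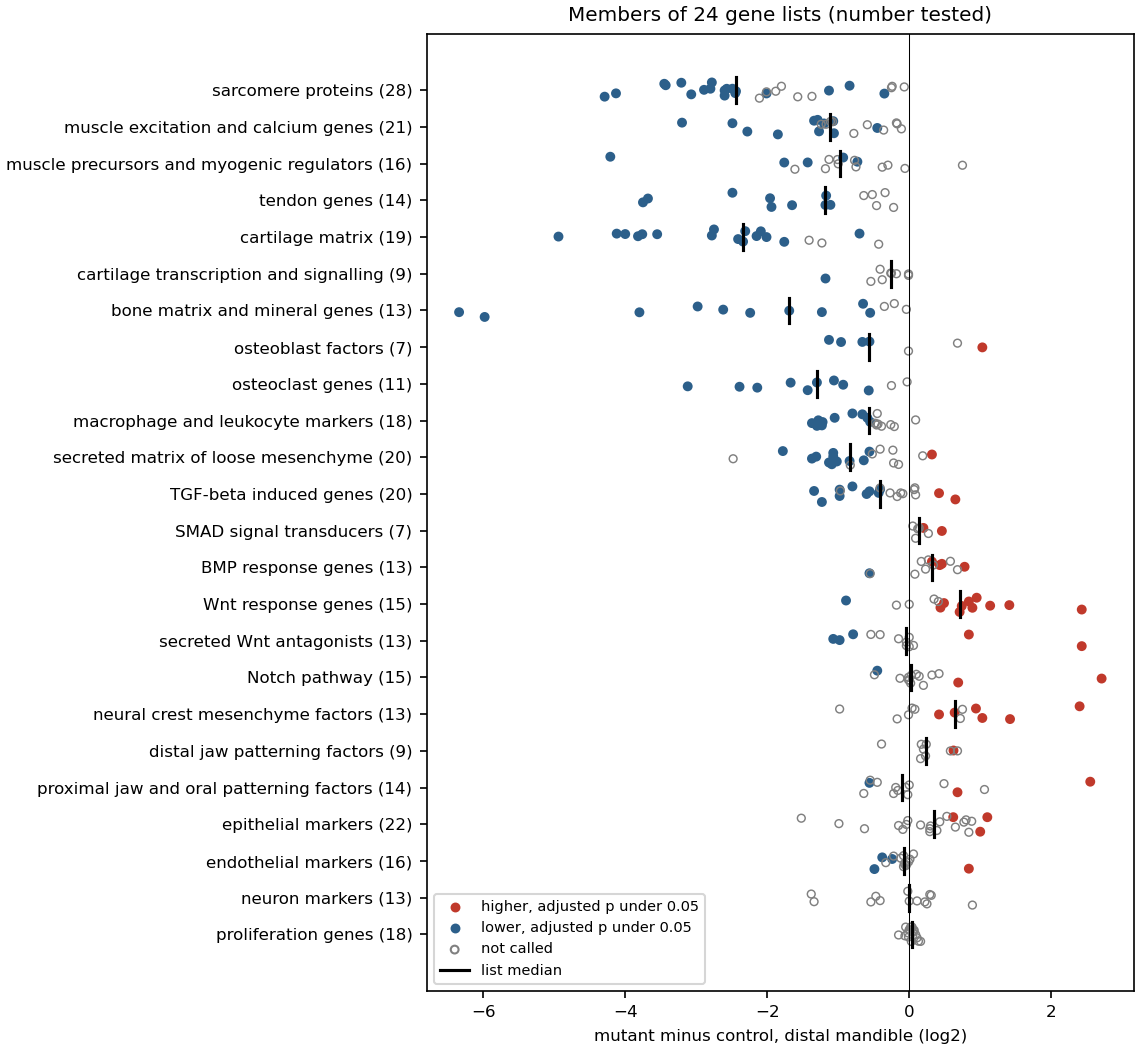
Each circle is 1 gene of the list named at the left, with the number tested, at its log2 change of mutant minus control distal mandible (x axis); red circles were called higher, blue circles lower and open circles were not called, and the black line is the list median. Cartilage matrix (median -2.34), sarcomere (-2.44) and bone matrix genes (-1.69) lie left of 0, Wnt response genes (0.71) and crest factors (0.64) mostly right of it.

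Of 22 epithelial markers, 3 were called higher and 0 lower (median 0.35), a share near the 16.0% of all genes called in either direction, and 1 was called higher without mutant arrays 1 and 3. Esrp2, an epithelial splicing factor, had 9.24, 9.39 and 9.57 in mutant arrays, against 8.41, 8.54 and 8.26 in control arrays (1.0 ± 0.20, adjusted p = 0.00201). Esrp1 and Sfn rose by 0.62 and 1.1, and 1 of the 3 rises remained without mutant array 2, mutant array 3, control array 1 or control array 3. The mean level of the list was 10.61, 10.85 and 11.10 in mutant arrays, against 10.48, 10.75 and 10.56 in control arrays, so the groups overlapped. The part of this epithelial RNA in the rises of Dkk4, Stfa3, Serpinb12 and Them5 was not tested. Of 16 genes of tooth and oral epithelium signalling, Lef1, Wnt10b and Edar rose and Pax9 fell (median -0.01), against 16.0% of all genes called. Pax9, a factor of tooth mesenchyme, had 8.78, 8.72 and 8.47 in mutant arrays, against 9.32, 9.27 and 9.14 in control arrays (-0.59 ± 0.16, adjusted p = 0.0163). Pax9 lost its call without mutant array 3, control array 1 or control array 2. The number of rises was 1 in 5 of the 6 fits without a single array and 2 without mutant array 1. Salivary gland genes were called in 0 of 3 cases (0.05 to 0.14), and 0 of 3 passed an unadjusted p of 0.05.

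Of 16 endothelial markers, Sox18 rose and Kdr, Esam and Tek fell (median -0.07), against 16.0% of all genes called in either direction. Sox18, a factor of vessel and hair follicle development, had 10.92, 10.99 and 10.94 in mutant arrays, against 10.04, 10.16 and 10.13 in control arrays (0.84 ± 0.12, 1.79-fold, adjusted p = 0.000245). The 3 endothelial falls, of 0.24 to 0.49, numbered 0 to 2 without single arrays and 1 without mutant arrays 1 and 3. Pericyte and smooth muscle markers fell in 4 of 9 cases (median -0.92), among them Rgs5 (-0.92 ± 0.19, adjusted p = 0.00293) and Abcc9 (-1.37 ± 0.29, adjusted p = 0.00304). Of 10 glial markers, S100b and Postn fell. S100b, which chondrocytes also express, had 6.76, 6.74 and 6.96 in mutant arrays, against 9.96, 9.55 and 9.96 in control arrays (-3.00 ± 0.57, 8.02-fold, adjusted p = 0.00167). Sox10, which is more specific for glia, changed by 0.14 (95% interval -0.19 to 0.47). Neuron, erythroid, immediate early and brain or eye markers were called in 0 of 13, 0 of 7, 0 of 10 and 0 of 9 cases, with medians between 0.00 and 0.08 (limma). At an unadjusted p under 0.05 these numbers were 2, 0, 3 and 0. Proliferation genes were called in 0 of 18 cases, with a median of 0.04 and a mean list level of 11.40, 11.42 and 11.40 in mutant arrays, against 11.37, 11.35 and 11.42 in control arrays. Their changes ran from -0.15 to 0.16, and 0 of 18 passed an unadjusted p of 0.05. Of 15 hypoxia and glycolysis genes, Slc2a1 and Ankrd37 rose by 0.60 and 0.89 and P4ha1 fell by 0.55 (median 0.18), Slc2a1 not being called without mutant array 2 or control array 3. Of 12 p53 and stress genes, Ccng1 and Eda2r (both group means at background) fell by 0.39 and 0.68 (median 0.18), and 0 were called without mutant array 2. The shares called among the glial, hypoxia and p53 genes lay near the 16.0% of all genes called. The 4 sex-linked genes gave 0 calls.

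The genotype effect in the distal mandible was then set against its mean in the 3 other regions, with the difference tested in the same model. The difference was called for 119 genes (0.854%), 49 more positive (0.351%) and 70 more negative (0.502%) in the distal mandible, and at an unadjusted p under 0.05 for 1292. Of the 119, 102 were also called within the region, 46 higher and 56 lower. The mutant and control arrays of the distal mandible enter both quantities, so these counts are not independent. Dkk4 differed by 2.85 (adjusted p = 0.000899): it changed by 2.43 here, by -0.17 in proximal mandible, by -1.40 in distal maxilla and by 0.30 in proximal maxilla. Tfap2b differed by 2.14 (adjusted p = 0.00193), with changes of 0.43, -0.03 and 0.38 in the proximal mandible, distal maxilla and proximal maxilla. Hey2 differed by 1.78 (adjusted p = 0.0151) and also rose in the proximal mandible, by 1.75. Otx1, a homeobox factor, had 8.96, 9.45 and 9.12 in mutant arrays, against 7.46, 7.80 and 7.31 in control arrays, and its change of 1.65 exceeded the mean of the others by 1.69 (adjusted p = 0.00227). Dynap and Klhl14 completed the 6 most positive called differences, with 2.40 and 1.85, unnamed transcripts and sex-linked genes being passed over here and below.
The 6 most negative differences among those called were those of Tceal7, Thbs4, Mcpt2, Atp1b4, Csrp3 and Ckm. Thbs4 changed by -3.68 in the distal mandible and -2.56 in the proximal mandible, but by -0.09 and -0.17 in the distal and proximal maxilla (difference -2.75, adjusted p = 0.00443). Csrp3, a LIM protein of striated muscle, changed by -2.47 and -1.18 in the distal and proximal mandible and by 0.44 and -0.11 in the distal and proximal maxilla (difference -2.19, adjusted p = 0.0317). Mcpt2, a mast cell protease, had 6.07, 5.98 and 6.44 in mutant arrays, against 7.90, 6.73 and 8.19 in control arrays. It changed by -1.44 in the distal mandible and by 1.82 in the proximal maxilla (difference -2.62, adjusted p = 0.00443), its mutant arrays here lay around background, and its call in the distal mandible was lost without control array 3. Among pathway members, Tgfb3 (-0.84, adjusted p = 0.0251), Gdf5 (-1.47, adjusted p = 0.0251) and Sfrp1 (-1.13, adjusted p = 0.0492) were more negative than the mean of the other regions. Id1 (0.54, adjusted p = 0.0011) and Twist1 (0.44, adjusted p = 0.0291) were more positive. That mean takes in both maxilla regions, so these differences do not set the distal apart from the proximal mandible. In the proximal mandible the TGF-beta ligands and the crest factors had medians of -0.75 and 0.77, against -0.52 and 0.64 here. The sarcomere list had medians of -2.44 here, -0.72 in proximal mandible, 0.09 in distal maxilla and 0.22 in proximal maxilla, and 0 of its 28 genes were called for the difference. Set against single regions, the effect differed for 15 genes (0.108%) from the proximal mandible and for 461 (3.31%) from the distal maxilla. The number of genes called for the difference from the 3 other regions was 18 without mutant array 2, 32 without control array 3, 51 without control array 2 and 57 without control array 1. With arrays of the same genotype and number treated as one random block over the regions, it was 339.

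**Figure D5:**
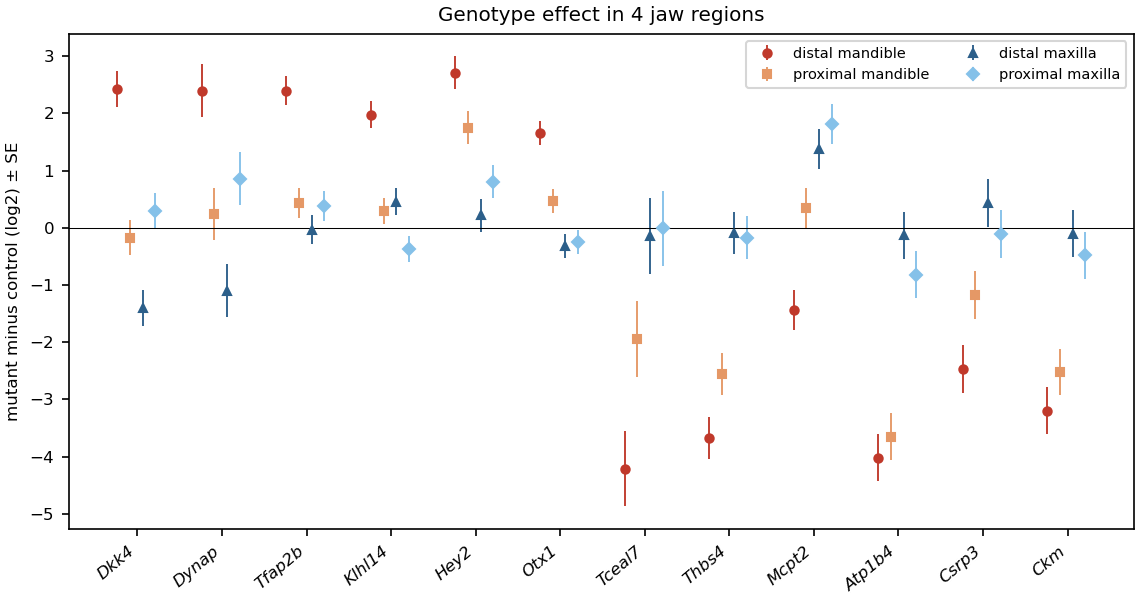
Log2 change of mutant minus control (y axis, points with SE bars) in the distal mandible (red circles), proximal mandible (orange squares), distal maxilla (dark blue triangles) and proximal maxilla (light blue diamonds) for the 6 genes with the most positive and the 6 with the most negative called difference between the distal mandible and the other regions. Dkk4 (2.43), Tfap2b (2.40), Klhl14 (1.98) and Otx1 (1.65) were called higher in the distal mandible and in none of the other regions, and the change of Atp1b4 in the proximal mandible (-3.65) is close to that in the distal mandible (-4.02).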

How the data were processed

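RNA from 24 pieces of mouse jaw at embryonic day 14.5, 3 arrays for each of 2 genotypes in 4 regions, had been hybridised to single-colour Affymetrix arrays. The authors deposited log2 values normalized with RMA, per the submitters' processing notes, which give no version; the labels' protocols name the RNeasy kit and 5 µg of total RNA. Of 45101 probe sets, 34945 carried 1 gene symbol, 932 several, 9160 none and 64 were controls. Probe sets with 1 symbol were used, 34741 of them matching a RefSeq gene, and the probe set with the highest mean over the 24 arrays stood for its gene (18193 genes, 9010 with several probe sets). Genes above the 40th percentile of an array in at least 3 arrays were tested (13942 genes).

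The 8 group means were fitted with limma 3.58.1 in R 4.3.3 (lmFit, eBayes with a trend, 16 residual degrees of freedom), and p-values were adjusted by the Benjamini-Hochberg method over all genes tested, with a call at an adjusted p under 0.05. The fit was tested on simulated data. Python 3.11.15 (matplotlib 3.10.9, numpy 2.4.6, pandas 2.3.3) made the tables and figures. Genes are named by these rules: the 15 largest rises and falls among called genes whose arrays did not overlap, markers of the comparison, all TGF-beta ligands and receptors, up to 6 members of each of 43 gene lists by size of the test statistic, the 6 largest differences from the other regions in each direction, and further members where a count is accounted for. Unnamed transcripts (Rik, Gm, LOC and clone names), Xist and Y-linked genes were passed over in the sets of 15 and of 6. The members and lists were chosen with earlier results of these data known. Of the tested list members, all passed the filter also on the 18 arrays of the other regions, except 1 of 16 muscle precursor genes. Alternatives were other filters, normalization, probe set rules, array weights, replicate blocks, Xist as a covariate and the omission of arrays.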

Additional observations from a re-analysis of the deposited data

Results flagged for a closer look

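The genotype effect in the distal mandible differed from its mean in the 3 other regions for 119 genes, by the test of the difference itself (limma, adjusted p under 0.05), from the proximal mandible alone for 15 genes and from the distal maxilla alone for 461. Arrays with the same genotype and number shared their sex-marker pattern over the regions, and the part of this in the differences was not tested.

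Among the genes named, the difference (log2, distal mandible minus the mean of the others) was positive for Dkk4 (2.85), Dynap (2.40), Tfap2b (2.14), Klhl14 (1.85), Hey2 (1.78), Otx1 (1.69), Emx2 (1.68), Avpr1a (1.37), Glis3 (1.1), Sox18 (0.74), Nkd2 (0.64), Id1 (0.54) and Twist1 (0.44). It was negative for Tceal7 (-3.51), Thbs4 (-2.75), Mcpt2 (-2.62), Atp1b4 (-2.49), Csrp3 (-2.19), Ckm (-2.17), Gdf5 (-1.47), Lgr5 (-1.23), Sfrp1 (-1.13), Tgfb3 (-0.84), Slit2 (-0.53) and Spry1 (-0.49). Emx2 rose by 2.55 in the distal and 2.40 in the proximal mandible, with changes of -0.02 and 0.23 in the distal and proximal maxilla. Lgr5 fell by 0.89 in the distal mandible, was not called in the proximal mandible (-0.24) or distal maxilla (0.61), and rose by 0.64 in the proximal maxilla.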

How the results depend on the processing

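Among 189 genes named, 167 were called, and 117 of these kept their call in each of the 6 fits without 1 array. Without 1 array at a time, the genes called numbered 1243 to 1825 (572 to 880 higher, 671 to 945 lower), the differences from the 3 other regions 18 to 107, from the proximal mandible 1 to 19 and from the distal maxilla 191 to 428. Without mutant arrays 1 and 3, 933 genes were called (336 higher, 597 lower), and 281 differed from the distal maxilla. Array weights gave 4268 genes (2373 higher, 1895 lower) and 469, 39 and 1127 for the 3 differences in the same order. Only the arrays compared gave 1682 higher genes and 50 differences from the proximal mandible. A random replicate block of genotype and number (consensus correlation 0.231) gave 339, 58 and 991 for the 3 differences. The cause of these shifts was not tested. Same-numbered mutant and control arrays correlated at 0.02, 0.09 and 0.19 in their deviations from group means (0.23, 0.28 and 0.01 after scaling each gene by its SD), with pairs under 0.1 by either measure, so the numbers were not taken to pair them, and 2 of 6 arrays correlated best with their own number. With the number within region as a replicate block, 2939 genes were called (1606 higher, 1333 lower), and 172, 18 and 640 for the 3 differences. Uncalled changes near 0 turned sign: Eng to 0.03 without control array 3 (-0.09 to 0.03 over the fits without 1 array), Acvrl1 to 0.05 with quantile normalization, 0.10 with Xist as covariate, 0.23 without mutant arrays 1 and 3 and up to 0.10 in the fits without 1 array (-0.16 to 0.10), Sox9 to 0.04 with the mean of probe sets, 0.62 without mutant arrays 1 and 3 and 0.03 and 0.47 without control array 1 and mutant array 3 (-0.32 to 0.47 without 1 array), and Matn4 to 0.07 without mutant arrays 1 and 3. Signals at background limit the size of the largest falls.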

Other observations

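Genes of lipid handling and adipocytes were called in 4 of 4 cases tested, against 16.0% of all genes. The list held 9 genes, of which 8 had a probe set. The adipocyte genes Pparg, Plin4, Adipoq and Cidec did not pass the filter, and Plin1 had no probe set, so the 4 do not stand for the whole list. Fabp4, a fatty acid binding protein of fat and capillary cells, had 5.21, 4.73 and 5.19 in mutant arrays, against 7.50, 8.14 and 9.20 in control arrays (-3.23 ± 0.45, adjusted p = 0.000154, limma), so all mutant arrays lay at background and the difference with them raised to the filter level was -1.92. Lpl, the lipoprotein lipase, and Cd36, a fatty acid receptor, fell by 1.27 and 1.24, and the adipocyte and epidermal factor Cebpa rose by 0.97. The 3 falls and the rise were called in each fit without a single array, and mutant array 2 was the lowest mutant array for all 4 genes.

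Of 20 axon guidance genes, 4 fell and 2 rose, with a median of -0.04, against 16.0% of all genes called in either direction. Sema3e had 8.53, 8.39 and 8.39 in mutant arrays, against 9.42, 9.42 and 9.20 in control arrays (-0.91 ± 0.16, adjusted p = 0.001), and Sema3c fell by 0.82. Both are secreted semaphorins, ligands for plexins and neuropilins. The neuropilin Nrp2 and the Robo ligand Slit2 fell by 0.47 and 0.43, the ephrin receptor Epha4 rose by 0.51, and Cxcl14 was the other rise. Slit2 lost its call without mutant array 2, and Epha4 without mutant array 1, mutant array 2, control array 2 or control array 3.

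Of 17 genes of the insulin-like growth factor axis and imprinted growth genes, 7 fell and 1, Nnat, rose (median -0.20). Igf2r, the receptor that clears Igf2, had 11.93, 11.59 and 12.01 in mutant arrays, against 12.50, 12.59 and 12.60 in control arrays (-0.72 ± 0.15, adjusted p = 0.00249). Igf1 and Meg3 fell by 0.76 and 0.67, and the very abundant Igf2, Mest, Peg3 and Plagl1 by 0.15 to 0.28. The number of falls was 3 without mutant array 1, control array 1 or control array 2, and 2 without mutant array 2 or control array 3.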
